A study of Mus musculus with 6 samples.

Results

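The 8 genes described here encode carriers that move amino acids across the plasma membrane: Slc7a5, Slc3a2, Slc1a5, Slc38a1, Slc38a2, Slc7a1, Slc7a6 and Slc1a4. Every probe set whose platform annotation names 1 of these genes and no other was taken, which gave 17 probe sets out of 34945 that name a single gene, and all 8 genes out of 18193. The genes were chosen by name, with earlier results of these data known. Slc7a5 and Slc3a2 had 1 probe set each, 3 genes had 2 and 3 genes had 3.

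Affymetrix arrays were used to measure RNA in memory phenotype CD4+ T cells from 2 tissues of mice with experimental autoimmune encephalomyelitis (EAE), in which T cells directed at myelin inflame the spinal cord. The spinal cord during acute clinical EAE gave 3 arrays, and the draining inguinal lymph node at the same stage gave 3 arrays. All mice were female C57BL/6 animals, aged 8 to 10 weeks, with MOG35-55-induced EAE, so both tissues came from diseased mice and no array stands for healthy tissue. The sources used here do not say how the cells were sorted, from how many animals each array was made, or whether these animals differed, and the p-values therefore measure a spread that may be technical.

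T cells that have met antigen take up more amino acids, both to build protein and to keep the growth kinase complex mTORC1 active. Slc7a5 (LAT1) exchanges large neutral amino acids such as leucine, and it reaches the cell surface bound to Slc3a2, the heavy chain of CD98. Slc1a5 (ASCT2) and Slc1a4 (ASCT1) exchange small neutral amino acids, glutamine among those carried by Slc1a5. Slc38a1 and Slc38a2 (SNAT1 and SNAT2) bring in glutamine and alanine with sodium, Slc7a1 (CAT1) carries arginine and lysine, and Slc7a6 is another light chain that pairs with Slc3a2. In mouse T cells, antigen receptor signals are known to raise Slc7a5, and T cells without it expand poorly.

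Intensities are linear values from the authors' RMA processing, and changes are the difference of mean log2 values, spinal cord minus lymph node, with the standard error (SE). The 6 arrays had median intensities between 68 and 71. Of the 12 measured T cell identity genes 0 were called, where 2.54% of all genes were, and 4 had positive and 8 negative changes. Cd3e and Cd247 encode chains of the T cell receptor complex. Cd3e read 2153, 1358 and 1679 in the spinal cord arrays, against 2124, 1248 and 1405 in the lymph node arrays. Cd247 read 4085, 3345 and 3339 in the spinal cord arrays, against 5083, 5005 and 5585 in the lymph node arrays. Its groups did not overlap, and its log2 change was -0.55 ± 0.13 SE (adjusted p = 0.113 by limma). Of 21 macrophage, monocyte and microglia markers, 20 had positive changes. For 18 the spinal cord arrays lay all above the lymph node arrays, where 8.81% of all genes did so. By limma 0 of the 21 were called. With array number as a block 9 were called higher, where 3.67% of all genes were. The summed intensity of the 21 markers was 1817, 6364 and 3705 in spinal cord arrays 1, 2 and 3, against 1044 to 1148 in the lymph node arrays. Of 10 measured neutrophil markers, 10 had positive changes, 2 had spinal cord arrays all above the lymph node arrays, and 0 were called. They summed to 575, 2307 and 849 in the spinal cord arrays, against 436 to 602 in the lymph node arrays. Of 9 measured dendritic cell markers, 9 had positive changes and 1, Itgax, was called higher (1.53 ± 0.17, adjusted p = 0.0128 by limma). Of 8 measured CD8 T cell and NK cell markers, 5 had positive and 3 negative changes. Klrk1 was the 1 called higher (1.34 ± 0.15, adjusted p = 0.0136 by limma), where 1.13% of all genes were. Both calls held in 4 of 6 fits without a single array. The B cell markers summed to 413 to 442 in the spinal cord arrays, against 997 to 1060 in the lymph node arrays. Nearly all of that gap was Cd22, at 108, 98 and 116 in the spinal cord arrays, against 620, 679 and 750 in the lymph node arrays. The other 8 B cell markers, summed after this was seen, gave 334, 315 and 313 in the spinal cord arrays, against 416, 318 and 310 in the lymph node arrays, which overlap, and 5 of all 9 had positive changes. Of these 8, Cd79b read 43, 29 and 39 in the spinal cord arrays, against 117, 79 and 57 in the lymph node arrays. Its groups did not overlap, with a log2 change of -1.15 ± 0.29 (adjusted p = 0.134 by limma, 0.0267 with array number as a block). In bulk RNA of this kind, fewer cells of a type and less RNA per cell cannot be told apart. Of 8 measured memory and effector phenotype genes, Cd69 and Il2ra were called higher and Ccr7 lower, where 1.13% and 1.41% of all genes were. The other 5 were not called. The log2 changes of Cd69, Il2ra and Ccr7 were 1.86, 2.17 and -2.92 (adjusted p = 0.00824, 0.0155 and 0.0439 by limma). These calls held in 5, 2 and 1 of 6 fits without a single array. The part of this difference in the changes of the transporter genes was not tested.

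The paired chains Slc3a2 and Slc7a5 had the largest positive changes of the 8 genes, both close to 3-fold, and Slc38a2 was next at 2-fold, while Slc38a1 had the largest negative change. Genes were called by limma over all 18193 genes where the adjusted p was below 0.05. By that rule 1 of 8 genes, Slc3a2, was called higher and 0 lower, where 2.54% of all genes were called, 1.13% higher and 1.41% lower. At an unadjusted p under 0.05, 4 of the 8 passed, where 14.3% of all genes did. With the array number in the titles as a block, 3 were called higher (Slc3a2, Slc7a5 and Slc38a2) and 1 lower (Slc38a1), where that fit called 11.1% of all genes, 3.67% higher and 7.45% lower. The spinal cord arrays lay all above the lymph node arrays for 3 of the 8 genes, where 8.81% of all genes did so, and all below them for 1, where 9.68% did. The other 4 genes had tissue groups that overlapped. The median change of the 8 genes was 0.20, beside 0.0019 over all genes, and leaving out number 1 or 3 of the spinal cord arrays gave 0.11 or 0.48, leaving out number 1 of the lymph node arrays 0.32.

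**Figure D1:**
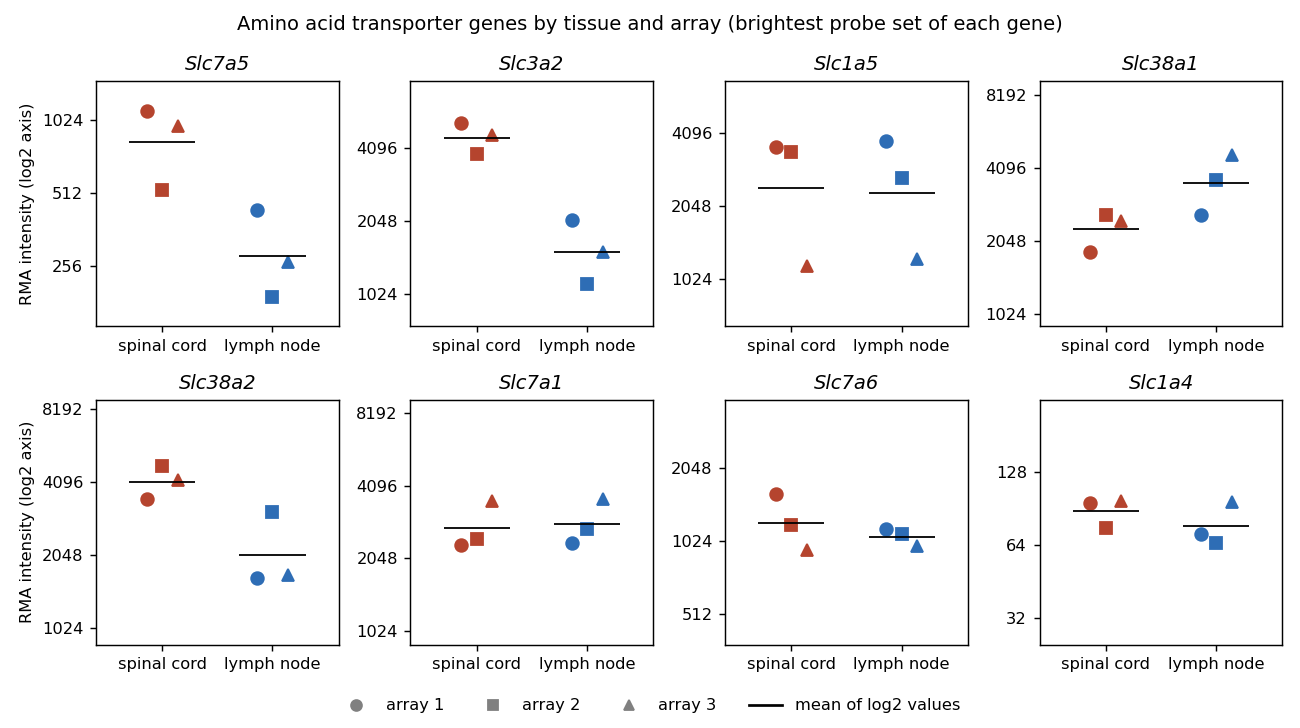
RMA intensity (log2 axis, spanning the same ratio in every panel) of the brightest probe set of each transporter gene in the spinal cord arrays (red) and the lymph node arrays (blue). Symbols give the array number and bars the mean of the log2 values, n = 3 per tissue. Slc7a5, Slc3a2 and Slc38a2 lie higher in all 3 spinal cord arrays, Slc38a1 lies lower in them, and Slc1a5 is low in array 3 of both tissues.

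Slc3a2, the CD98 heavy chain, read 5209, 3873 and 4625 in spinal cord arrays 1, 2 and 3, against 2064, 1128 and 1529 in lymph node arrays 1, 2 and 3. Every spinal cord array lay above every lymph node array, and number 2 was the lowest of the 3 in each tissue. The mean log2 value was 12.15 ± 0.22 in spinal cord, against 10.58 ± 0.44 in lymph node (SD, n = 3 each). Slc3a2 rose 2.97-fold, a log2 change of 1.57 ± 0.25 SE with an adjusted p of 0.0359 by limma. Its change exceeded that of 98.7% of genes. Within arrays of the same number the ratio was 2.52, 3.43 and 3.02, and the block brought the adjusted p to 0.0031. Leaving out any 1 spinal cord array ended the call (adjusted p = 0.108, 0.105 and 0.122 without numbers 1, 2 and 3), as did leaving out number 2 (0.0955) or 3 (0.115) of the lymph node arrays, while the change stayed between 1.35 and 1.79. It held without lymph node array 1 (adjusted p = 0.0366).

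Slc7a5, the leucine carrier that pairs with Slc3a2, read 1117, 527 and 965 in the spinal cord arrays, against 436, 191 and 265 in the lymph node arrays. All 3 spinal cord arrays were above all lymph node arrays, and array 2 was again the lowest in each tissue. The log2 change was 1.56 ± 0.40 SE, or 2.95-fold, from a mean of 9.69 ± 0.57 in spinal cord, against 8.13 ± 0.60 in lymph node (SD, n = 3 each), and it was not called (adjusted p = 0.132 by limma). The ratio between arrays of one number was 2.56, 2.76 and 3.64. With the block the SE was 0.14, against 0.40 without it, and the adjusted p was 0.00378.

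The mean ratio of the light to the heavy chain was close in both tissues. The log2 ratio of Slc7a5 over Slc3a2 was -2.45 ± 0.37 in spinal cord, against -2.44 ± 0.18 in lymph node (SD, n = 3 each). The difference was -0.0087 (SE 0.24), with p = 0.9 by an exact two-sided permutation test. With 3 against 3 arrays that test cannot give a p below 0.1, so it cannot show that the ratio was equal in both tissues. Such a ratio mixes probe brightness with level, so only its change between tissues has a meaning. It says nothing of protein at the surface. Over the 6 arrays, and among 9095 other genes brighter than the median gene, the gene with the profile nearest to that of Slc7a5 was Slc3a2, with a root mean square difference of 0.24 between log2 profiles centred on their means. The next were Lta, which encodes the cytokine lymphotoxin alpha (0.25), and Osgin1 (0.25). Nearest to Slc3a2 were Osgin1 (0.13), the inhibitory receptor gene Ctla4 (0.14) and Ndrg1 (0.16). These distances cover 6 arrays that share tissue and number, and they describe likeness only.

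Both chain genes were lowest in the arrays numbered 2, and other values moved in those arrays. The 5′ over 3′ signal of the actin controls, a measure of how far the amplified RNA reaches, was -1.90, -2.30 and -1.30 on the log2 scale in the spinal cord arrays, against -1.05, -3.50 and -0.82 in the lymph node arrays, lowest at number 2 in each tissue. The part of RNA quality in these differences was not tested. The macrophage and neutrophil marker sums were also highest in spinal cord array 2 (6364 and 2307). That was the spinal cord array in which Slc3a2 (3873) and Slc7a5 (527) were lowest. The part of such cells in the changes was not tested.

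**Figure D2:**
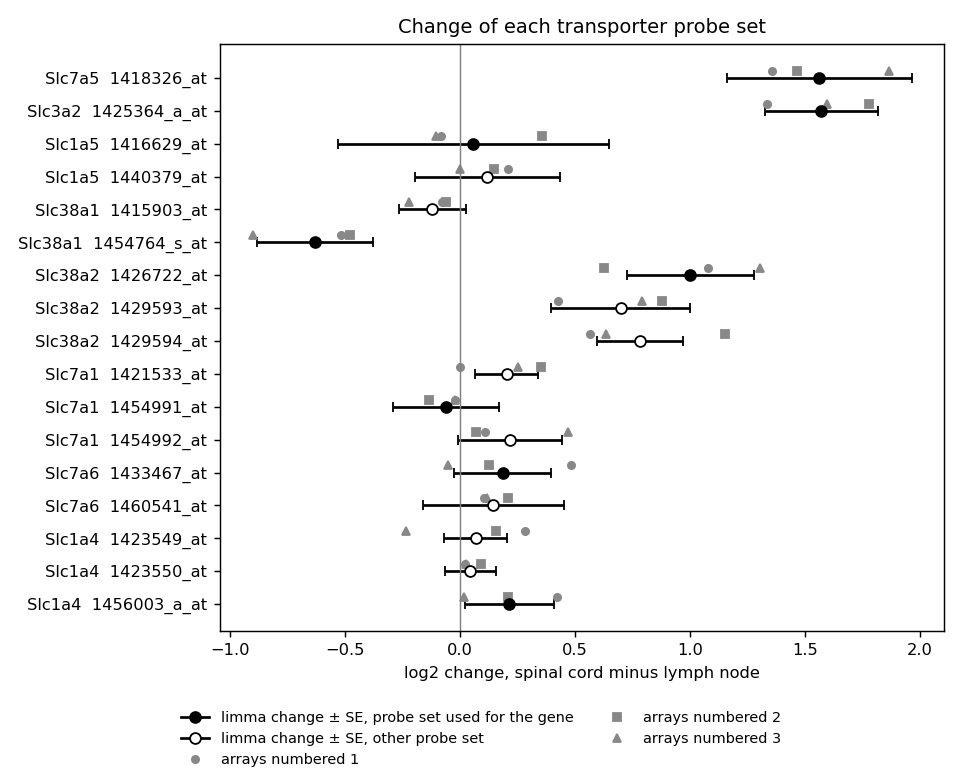
Log2 change, spinal cord minus lymph node, of each of the 17 transporter probe sets by limma (circles with SE, n = 3 arrays per tissue), with the difference between arrays of the same number as small grey symbols. Groups did not overlap for 4 probe sets that were higher in spinal cord and 1 that was lower, where 8.39% and 8.45% of all probe sets did so. All 3 grey symbols lie right of 0 for 9 probe sets, among them those of Slc7a5, Slc3a2 and Slc38a2, and left of it for 3, namely both of Slc38a1 and 1 of Slc7a1. For the other 5 they do not lie on one side.

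Of 33 further genes for amino acid carriers of the plasma membrane, 0 were called by limma, 1 was called lower with the block, and 2 had an unadjusted p under 0.05. The shares over all genes were 2.54%, 7.45% and 14.3%. Their median change was 0.061. Apart from Slc6a6 and Slc43a2, named after their values were seen, none of the 33 read above 203 on any array. For 4 of them every array read at or under 25, the 20th percentile of all values. The absence of calls among such dim genes is therefore a weak sign that they did not change. Slc16a10, a carrier of aromatic amino acids, had a log2 change of -0.59 ± 0.15 (adjusted p = 0.142; 0.0392 with the block) and Slc7a10 one of -0.77 ± 0.30 (adjusted p = 0.33). Slc7a10, a light chain of Slc3a2, read 64, 63 and 38 in the spinal cord arrays, against 106, 64 and 111 in the lymph node arrays. Among other light chains, Slc7a11, the cystine carrier, read 20 to 23 in the spinal cord arrays, against 21 to 25 in the lymph node arrays, Slc7a8 read 24 to 26 in the spinal cord arrays, against 22 to 23 in the lymph node arrays, and the 20th percentile of all values was 25. Slc7a7 read 55 to 85 in the spinal cord arrays, against 56 to 74 in the lymph node arrays. These 3 were named after their values were seen.

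Slc38a2 and Slc38a1, the sodium-coupled pair, had changes of opposite sign. By its brightest probe set Slc38a2 read 3497, 4769 and 4182 in the spinal cord arrays, against 1658, 3092 and 1695 in the lymph node arrays. The tissue groups did not overlap, although lymph node array 2 (3092) came close to spinal cord array 1 (3497). The log2 change was 1.00 ± 0.28 SE, with an adjusted p of 0.162 by limma and 0.0183 with the block. The ratio within one number was 2.11, 1.54 and 2.47.

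The other probe sets of Slc38a2 had changes of the same sign. The second, 1429593_at, read 2754, 3129 and 1875 in the spinal cord arrays, against 2051, 1701 and 1085 in the lymph node arrays, and here the groups overlapped. It had a log2 change of 0.70 ± 0.30 (adjusted p = 0.42 over all probe sets). The third, 1429594_at, was dimmer, with 102, 162 and 121 in the spinal cord arrays, against 69, 73 and 78 in the lymph node arrays, and its groups did not overlap (0.78 ± 0.19, adjusted p = 0.143). Of the 17 transporter probe sets 1, that of Slc3a2, was called over the 34945 probe sets, of which 1.49% were, and 5 were called higher and 0 lower with the block, which called 7.65% of probe sets, 2.94% higher and 4.71% lower. All 3 of Slc38a2 were among the 5, at adjusted p of 0.0296, 0.0443 and 0.0472 by limma.

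Slc38a1 read 1841, 2628 and 2492 in the spinal cord arrays, against 2634, 3662 and 4657 in the lymph node arrays by its brightest probe set, 1454764_s_at. The groups did not overlap, but spinal cord array 2 (2628) and lymph node array 1 (2634) were nearly equal. The log2 change was -0.63 ± 0.25 SE, 1.55-fold lower, with an adjusted p of 0.333 by limma and 0.0392 with the block. The suffix s marks a probe set whose probes may also match transcripts of another gene. Over all probe sets its adjusted p with the block was 0.0539, which is not a call. The other probe set, 1415903_at, read 1556, 1673 and 1275 in the spinal cord arrays, against 1646, 1745 and 1486 in the lymph node arrays. Its groups overlapped and its log2 change was -0.12 ± 0.14 (adjusted p = 0.824; 0.561 with the block), so the 2 probe sets gave the same sign and differed in size.

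The log2 ratio of Slc38a2 over Slc38a1 was 0.93, 0.86 and 0.75 in the spinal cord arrays, against -0.67, -0.24 and -1.46 in the lymph node arrays. The groups did not overlap, and the ratio differed by 1.63 (SE 0.36), in the same direction in 3 of 3 array numbers. The p of an exact two-sided permutation test was 0.1, the smallest that 3 against 3 arrays allow, or 0.2 after Benjamini-Hochberg adjustment over 4 gene pairs. With the probe sets of each gene averaged, the difference was 1.20.

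Upstream sequences of the 2 members with a RefSeq promoter entry that were called higher with the block, Slc3a2 and Slc38a2, are shown with the motifs found in them. RefSeq promoters (GRCm38.p6) were matched by symbol for 5 of the 8 genes, 7 promoters in all, and Slc7a5, Slc1a5 and Slc38a1 had none in the table. Both strands were searched for 4 motifs: TGATGNAA, a composite element for C/EBP and ATF factors such as Atf4, GGGCGG, the GC box, TGANTCA, the AP-1 site, and CACGTG, the E-box bound by Myc and Max. Capitals mark a match to any of them, and the 250 bases before the annotated start are given 5′ to 3′ on the gene's strand.
Slc3a2, chr19:8713898-8714147, minus strand: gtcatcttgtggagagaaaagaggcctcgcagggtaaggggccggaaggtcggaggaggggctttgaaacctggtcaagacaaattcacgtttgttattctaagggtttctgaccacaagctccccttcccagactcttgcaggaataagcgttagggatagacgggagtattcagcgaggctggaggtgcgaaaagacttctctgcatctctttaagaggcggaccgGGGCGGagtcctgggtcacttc
Slc38a2, chr15:96699729-96699978, minus strand: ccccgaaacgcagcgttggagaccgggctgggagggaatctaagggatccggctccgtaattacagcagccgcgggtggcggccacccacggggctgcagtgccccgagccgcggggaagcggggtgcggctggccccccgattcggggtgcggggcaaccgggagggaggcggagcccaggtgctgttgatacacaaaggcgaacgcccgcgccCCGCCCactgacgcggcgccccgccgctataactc
Each of the 2 windows holds 1 GC box, which 32.7% of the 32851 promoters in the table hold in the same 250 bases, and neither holds 1 of the other 3 motifs.

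Over the table's windows of 300 bases, which reach 50 bases past the start, TGATGNAA occurs in 3.97% of promoters, and of the 5 transporter genes with an entry it occurs in Slc1a4. That site is shown because it is the element for factors of the amino acid starvation response. The 30 bases around it cross the annotated start, and the capitals mark the motif, on the opposite strand.
Slc1a4, chr11:20332699-20332728, minus strand: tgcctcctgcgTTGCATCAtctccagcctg
A match is a description of letters and not a bound site.

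Slc1a4 was dim on every array. Its probe set 1456003_a_at read 95, 75 and 97 in the spinal cord arrays, against 71, 65 and 96 in the lymph node arrays, groups that overlapped, with a log2 change of 0.21 ± 0.19 (adjusted p = 0.718 by limma; 0.359 with the block). The other probe sets read 61 to 69 in the spinal cord arrays, against 56 to 73 in the lymph node arrays, near the median of all values, 71. Their changes were 0.067 ± 0.14 and 0.045 ± 0.11.

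Slc1a5, the glutamine exchanger, varied widely among arrays of each tissue and hardly between the tissues. It read 3609, 3428 and 1161 in the spinal cord arrays, against 3820, 2676 and 1247 in the lymph node arrays, and array 3 was the dimmest in each. The log2 change was 0.057 ± 0.59 SE (adjusted p = 0.984 by limma), and with the block it was 0.057 ± 0.14 (0.842). The dimmer probe set, 1440379_at, had 135, 156 and 81 in the spinal cord arrays, against 117, 141 and 81 in the lymph node arrays. It too was lowest at number 3 in both tissues, with a change of 0.12 ± 0.32. Array number accounted for 97.6% of the spread of Slc1a5 over the 6 arrays and tissue for 0.161%. Nearest in profile were Rnf216 (root mean square difference 0.069), the ectonucleotidase gene Nt5e (0.089) and the autophagy gene Atg9a (0.13).

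The log2 ratio of Slc1a4 over Slc1a5 differed between tissues by 0.16 (SE 0.87). The p of the exact two-sided permutation test was 0.7, where 0.1 is the smallest it can give here.

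**Figure D3:**
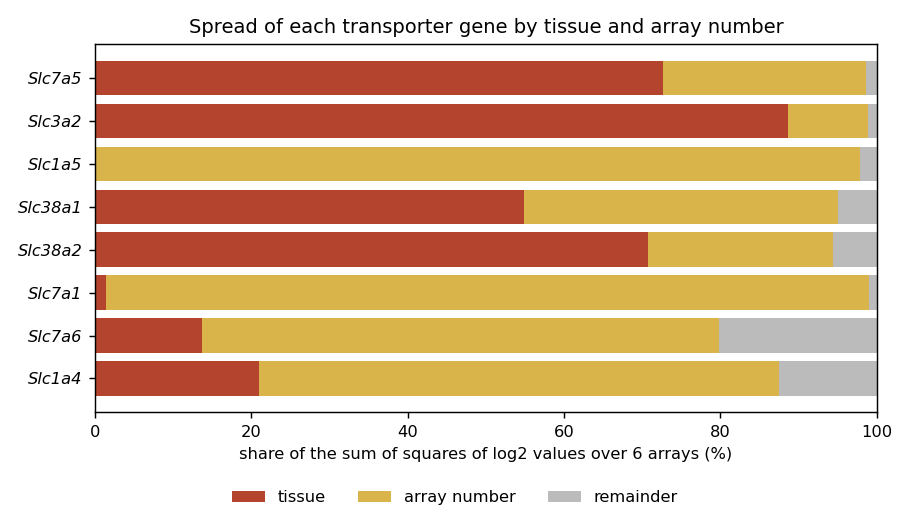
Share of the sum of squares of log2 values over the 6 arrays (%) that went with tissue, with array number and with neither, for the brightest probe set of each transporter gene. Tissue takes 88.7% for Slc3a2 and 0.161% for Slc1a5, and array number takes 97.6% for both Slc1a5 and Slc7a1.

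Slc7a1, the carrier of arginine and lysine, read 2335, 2457 and 3536 in the spinal cord arrays, against 2372, 2700 and 3591 in the lymph node arrays. Here array 3 was the highest in both tissues, the reverse of Slc1a5, and array number again took 97.6% of the spread. The log2 change was -0.060 ± 0.23 SE, and with the block ± 0.11 (adjusted p = 0.947 and 0.778 by limma). The change was 0.067 after quantile normalization, so no direction is given. A second probe set, 1454992_at, read 986, 835 and 1426 in the spinal cord arrays, against 914, 795 and 1029 in the lymph node arrays, a change of 0.22 ± 0.23. The third, 1421533_at, read 23 to 25 in the spinal cord arrays, against 18 to 24 in the lymph node arrays, at or under the 20th percentile of all values on every array.

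Slc7a6, the other light chain in the set, read 1592, 1186 and 937 in the spinal cord arrays, against 1139, 1088 and 973 in the lymph node arrays. The groups overlapped and array 3 was the lowest in each tissue. The log2 change was 0.18 ± 0.21 SE (adjusted p = 0.783 by limma; 0.481 with the block), and its other probe set gave 0.14 ± 0.31. The log2 ratio of Slc7a6 over Slc7a5 was 0.55 ± 0.61 in spinal cord, against 1.92 ± 0.56 in lymph node (SD, n = 3 each), a difference of -1.38 (SE 0.48) with groups that did not overlap. The exact two-sided permutation p was 0.1, or 0.2 adjusted over the 4 pairs.

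Of the poly-A control transcripts 1, dap, was read, and its values and the 5′ over 3′ signals also ran with array number. The dap control, RNA that is added to a sample, read 15357, 2985 and 949 in the spinal cord arrays, against 11208, 7093 and 2167 in the lymph node arrays, lowest at number 3 in both tissues. Slc1a5 was lowest and Slc7a1 highest in the same arrays. The part of sample handling in the spread of Slc1a5 and Slc7a1 was not tested.

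Of 18 measured genes listed as lysosomal and other intracellular amino acid carriers, 1 was called higher and 2 lower (under the block 1 and 3). Among all genes 1.13% were called higher and 1.41% lower (under the block 3.67% and 7.45%). The list median was -0.23. Slc15a3, which carries histidine and small peptides out of the lysosome, read 2539, 1338 and 1221 in the spinal cord arrays, against 209, 135 and 265 in the lymph node arrays. It rose by 3.04 ± 0.37 on the log2 scale (adjusted p = 0.0158 by limma). The macrophage marker sum was higher in the same tissue, at 1817, 6364 and 3705 in spinal cord arrays 1, 2 and 3. By array, Slc15a3 was highest in spinal cord array 1, where that sum was lowest. The part of such cells in the change of Slc15a3 was not tested. Slc36a4, an amino acid carrier, read 206, 217 and 219 in the spinal cord arrays, against 477, 608 and 590 in the lymph node arrays, and fell by 1.38 (SE 0.13, adjusted p = 0.00824). Slc25a13, a mitochondrial aspartate and glutamate carrier, fell by 1.35 (SE 0.17, adjusted p = 0.0196). Without single arrays the calls of Slc15a3, Slc36a4 and Slc25a13 held in 3, 4 and 1 of 6 fits, with adjusted p of up to 0.0747, 0.0543 and 0.101. The gene added with the block was Slc38a6 (-0.53 ± 0.11).

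Among 30 measured genes by which mTORC1 senses amino acids, 3 were called lower and 0 higher, where 1.41% and 1.13% of all genes were. Of the 30, 24 had negative changes (median -0.27). Sesn1, a sestrin, the family that holds mTORC1 back when leucine is scarce, read 983, 1209 and 806 in the spinal cord arrays, against 4260, 4519 and 2188 in the lymph node arrays. It fell by 1.82 (SE 0.32, adjusted p = 0.0483 by limma). Sesn3, of the same family, read 1834, 2044 and 1963 in the spinal cord arrays, against 4077, 4630 and 3281 in the lymph node arrays, and fell by 1.02 (SE 0.16, adjusted p = 0.0329). Rragd, a Rag GTPase that recruits mTORC1 to the lysosome, read 37, 49 and 43 in the spinal cord arrays, against 211, 312 and 122 in the lymph node arrays, and fell by 2.23 (SE 0.34, adjusted p = 0.0346). The groups did not overlap for any of the 3. Each call held in 1 of 6 fits without a single array, with adjusted p of up to 0.177, 0.119 and 0.119. With the block 5 were called lower, where 7.45% of all genes were, the added genes being Flcn and Tsc1, both named after their values were seen.

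**Figure D4:**
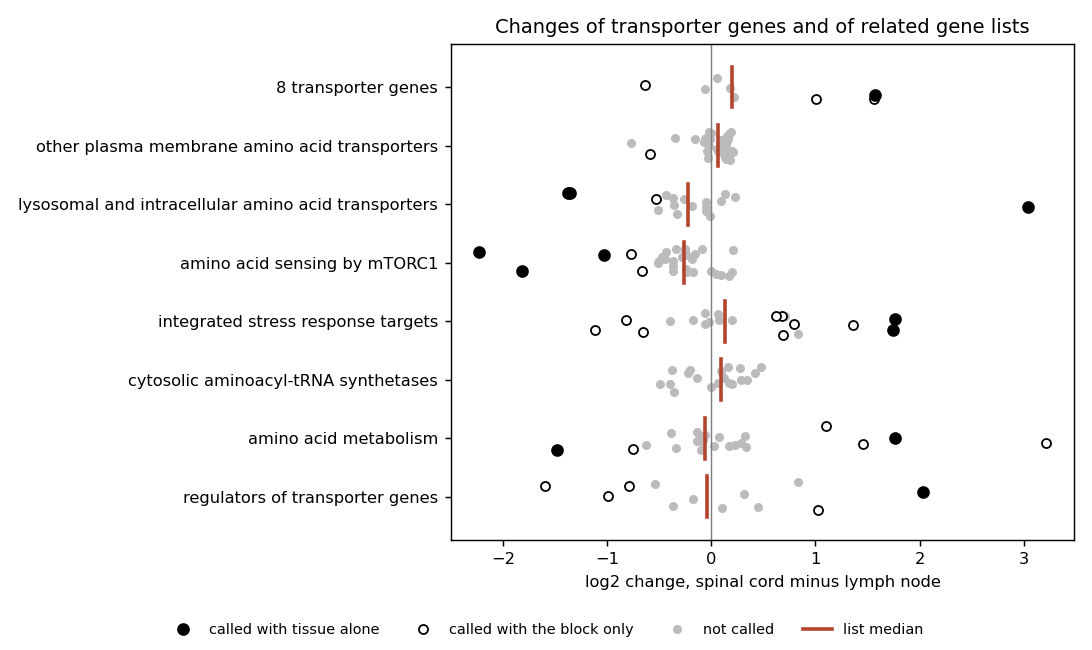
Log2 change, spinal cord minus lymph node, of the 8 transporter genes and of the genes in 7 related lists, 1 point per gene, with the list median as a red bar. Filled black points were called with tissue alone, open black points with the block only, and grey points by neither. Slc3a2 is the 1 filled point among the transporter genes.

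The targets of the integrated stress response, by which Atf4 raises genes of amino acid supply, included 2 called higher and 0 lower of 20 measured. The shares over all genes were 1.13% and 1.41%. Asns, which makes asparagine, read 838, 846 and 806 in the spinal cord arrays, against 186, 241 and 324 in the lymph node arrays and rose by 1.77 (SE 0.21, adjusted p = 0.0153 by limma). Cebpb, a transcription factor of the C/EBP family, rose by 1.75 (SE 0.16, adjusted p = 0.00798) and was called in 6 of 6 fits without a single array, Asns in 2 of 6 (adjusted p up to 0.0871). Atf4 itself read 2617, 2889 and 4836 in the spinal cord arrays, against 2466, 1327 and 1979 in the lymph node arrays, a change of 0.83 ± 0.32 (adjusted p = 0.317, not a call). Under the block 7 members were higher and 3 lower, where 3.67% and 7.45% of all genes were, and the list median was 0.14. The 3 lower ones, named after their values were seen, were Psat1 and Psph, of serine synthesis, and Ddit4.

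Of 19 measured cytosolic aminoacyl-tRNA synthetase genes, whose products load amino acids onto tRNA, 0 were called with or without the block by limma, and 0 had an unadjusted p under 0.05. The shares over all genes were 11.1% with the block, 2.54% without it and 14.3%. The list median was 0.093. The nearest to a call by p were Mars1 (0.42 ± 0.18, adjusted p = 0.378) and Qars (-0.38 ± 0.16, adjusted p = 0.378).

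Of 23 measured genes of amino acid metabolism, Asns was called higher and Bckdhb, a subunit of the enzyme that breaks down branched-chain amino acids, lower. Among all genes 1.13% were called higher and 1.41% lower. The list median was -0.062. Bckdhb read 96, 106 and 98 in the spinal cord arrays, against 288, 258 and 293 in the lymph node arrays and fell by 1.48 (SE 0.11, adjusted p = 0.00545 by limma), a call that held in 6 of 6 fits without a single array. With the block 4 genes were higher, the added ones, named after their values were seen, being Got1, Odc1 and Arg1, and 2 were lower, the added one being Ppat. That fit called 3.67% of all genes higher and 7.45% lower. Arg1, an arginase of macrophages, read 93, 829 and 129 in the spinal cord arrays, against 21 to 27 in the lymph node arrays. The macrophage marker sum was 1817, 6364 and 3705 in those spinal cord arrays, and the neutrophil marker sum was 575, 2307 and 849. The part of such cells in the values of Arg1 was not tested.

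Among 12 regulators linked to transporter genes or their proteins, Mxd1, an antagonist of Myc, was the 1 called higher, and 0 were called lower. The shares over all genes were 1.13% and 1.41%. Mxd1 read 1791, 2136 and 2830 in the spinal cord arrays, against 563, 480 and 585 in the lymph node arrays and rose by 2.03 (SE 0.20, adjusted p = 0.00824 by limma), called in 4 of 6 fits without a single array (adjusted p up to 0.0543). Myc, which drives carrier genes in activated T cells, read 532, 386 and 435 in the spinal cord arrays, against 824, 635 and 520 in the lymph node arrays, a change of -0.54 ± 0.21 (adjusted p = 0.334; 0.064 with the block) with groups that overlapped. With the block 2 were higher, adding the ubiquitin ligase gene Nedd4, and 3 were lower, namely Mxd4, Nfe2l2 and Nedd4l, all named after their values were seen. That fit called 3.67% of all genes higher and 7.45% lower.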

How the data were processed

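Per the labels' protocols, biotin-labelled cRNA was made from 1 ng of total RNA by an Affymetrix amplification in 2 cycles. The submitters' processing notes name RMA, in which background is corrected, arrays are normalized and probes are summarised, without a version. The deposited values are whole numbers that run from 9 to 39505, read here as intensities on a linear scale, so log2 was taken first. No detection calls were used, and 3 arrays per tissue limit the precision.

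Of 45101 probe sets, 34945 named 1 gene in the platform annotation, 932 named several and 9160 named none, beside 64 controls. By gene identifier 34741 matched RefSeq (GRCm38.p6), used for names and promoter sequences. A gene was read from its probe set of highest mean over all arrays (18193 genes). Probe sets of members were also tested over all 34945.

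limma 3.58.1 in R 4.3.3 (lmFit, eBayes) was fitted with a single term, tissue; tests were two-sided and adjusted by Benjamini-Hochberg. The fit was tested on simulated data. Deviations from tissue means, over genes that are not independent, correlated at 0.576, 0.509 and 0.777 between arrays of the same number in the titles, and at most at 0.00506 between others across tissues, and the fit with a block treats the numbers as pairs; the labels do not say what a number shares, and centring builds in part of this contrast. It is given where it changes a call. At least 93.5% of probe sets differed between any 2 arrays.

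The members and gene lists were chosen with earlier results of these data known. Named genes were all members, up to 4 called genes of each related list (up to 2 by p where none was called), Myc and Atf4. Also named were the 3 genes nearest in profile to a member, given here for Slc7a5, Slc3a2 and Slc1a5. Exceptions are marked. Genes of the cell type and phenotype lists were named outside this rule, some after their values were seen. Listed genes absent from the single-gene probe sets were not analysed here. Alternatives left out arrays, dim genes below the 40th percentile or the 20th percentile floor, or changed scaling, variance model, array weights, probe set choice and threshold. Python 3.11.15, pandas 2.3.3, numpy 2.4.6, scipy 1.17.1 and matplotlib 3.10.9 were used.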

Additional observations from a re-analysis of the deposited data

How the results depend on the processing

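Changes of Slc7a5, Slc3a2, Slc38a2 and Slc1a4 were positive, and that of Slc38a1 negative, under all alternatives tried. Under the replicate block, 668 genes were called higher and 1355 lower, with 3 and 1 transporter genes, and 5 transporter probe sets were called higher. The block for Slc7a5 (1.56), Slc38a2 (1.00) and Slc38a1 (-0.63) gave adjusted p of 0.00378, 0.0183 and 0.0392, and it changed no other call of a transporter gene. With the block and without both arrays of one number, 0 to 152 genes were called higher, 0 to 176 lower and 0 to 1 transporter genes higher. Without single arrays 49 to 136 genes were called higher, 32 to 190 lower, and 0 to 1 transporter genes higher. With low values raised to the 20th percentile, 77 were higher, 84 lower and 0 transporter genes higher (Slc3a2 adjusted p = 0.0981). At an adjusted p below 0.01 the counts were 56, 47 and 0. The cause was not tested where it is not the stricter threshold or the fewer arrays.

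Slc1a5, Slc7a1 and Slc7a6 had no stable sign. Without single arrays Slc1a5 ran from -0.40 to 0.59, Slc7a1 from -0.25 to 0.11 and Slc7a6 from -0.014 to 0.37. Slc1a5 was -0.093 under the block without number 2. Slc7a1 was 0.067 after quantile normalization, 0.12 with the mean of probe sets and 0.22 with the most variable probe set. The ratio differences without single arrays ran from -0.44 to 0.78 for Slc1a4 over Slc1a5 and from -0.12 to 0.20 for Slc7a5 over Slc3a2. The Slc3a2 call held after quantile normalization, median centring, the filter on dim genes, the other variance model and array weights, and changes of Slc7a5 and Slc3a2 were 1.70 each after quantile normalization.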
